A study of Glycine max with 4 samples.

Results

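The regions described here are start regions that carried nanoCAGE tags in soybean shoots and not a single tag in roots. NanoCAGE reads the beginnings of capped transcripts. A tag is counted at the base where its transcript is read to begin, and neighbouring start bases of a strand are grouped as a tag cluster. Root and shoot clusters of the same strand at most 100 bp apart were joined into 23330 regions on the 20 sequences of the assembly. Of these, 13103 summed to 2 TPM or more in shoot (TPM is the authors' tag level, with the replicates of a tissue pooled), and 1079 of them summed to exactly 0 in root. The 1079 root-silent regions are 4.62% of all regions and 8.23% of the shoot regions of 2 TPM or more. They were chosen by these pooled shoot and root values, so their difference between the tissues is a description and was not tested.

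The 4 libraries, 2 of root and 2 of shoot, were made from 1 µg of total RNA each of the cultivar Williams 82, for which the labels name no treatment. All plants were 2 weeks old and grew under white light (300 µmol m-2 s-1, 12 h a day). The libraries of a tissue are numbered 1 and 2, and no label says whether different plants were used. A p-value therefore reflects the spread of these samples alone, and that spread may be technical. Shoots and roots hold many cell types, and fewer cells of a type cannot be told apart from less RNA per cell.

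A gene can be silent in an organ as a whole, or it can be transcribed there from another start, and a map of starts shows the use of each region and of its surroundings separately. In plants, sharp promoters that start at 1 or a few bases often have a TATA box, whereas broad promoters start over many bases. Tags are also found inside transcription units, downstream of a stronger start. The files pair no gene names with positions, and no sequence or gene models of their assembly were used here. Regions are therefore named by sequence, strand, start and end as the deposited files give them, counted from 1, and the tissue labels were not checked against marker genes.

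The table of counts per library covered sequences 1 to 12 and part of sequence 13, with 655935 to 1000476 tags a library. It held 730 of the root-silent regions, and 349 lay outside it and have pooled values without replicates. Root-silent regions were 8.26% of the shoot regions of 2 TPM or more inside the count table and 8.19% outside. At the pooled depth of 2685956 root tags, a count of 0 allows up to 3 tags, or 0.859 TPM. Floors and intervals reflect counting error alone, because amplified reads that carry no molecular identifier are not independent molecules.

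Most root-silent regions were weak in shoot, with a tail of strong ones. Their shoot levels ran from 2.28 to 404 TPM, with a median of 6.49 TPM and quartiles of 3.26 and 14.6 TPM. The median of the 12024 shoot regions with root tags was 10.4 TPM. Together the root-silent regions held 2.39% of all shoot TPM, and the 10 strongest of them held 14.9% of that amount. Against the floor of 3 root tags, the shoot TPM was at least 7.56-fold higher at the median region, at least 10-fold higher in 434 regions and at least 100-fold higher in 35. The weakest had 7 shoot tags (90 regions, 2.28 TPM), and 145 regions with no root tag and 6 shoot tags (1.95 TPM) lay just below the limit. On the root side, 422 shoot regions had exactly 1 root tag, 307 had 2 and 285 had 3, so that regions at 0 tags adjoined many at very low root use. Of the 292 covered regions with 1 root tag, the tag lay in root replicate 1 in 152 and in root replicate 2 in 140.

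Silence in root became rarer as the shoot level rose, but it was still found among the strongest shoot regions. It was found in 12.0% of shoot regions of 2 to 5 TPM (95% Wilson interval 11.0 to 13.03), in 8.72% of those of 5 to 10 TPM, in 7.84% of those of 10 to 20 TPM and in 6.01% of those of 20 to 50 TPM. Above that, 43 of 993 regions of 50 to 100 TPM (4.33%) and 30 of 1078 regions of 100 TPM or more (2.78%, interval 1.96 to 3.94) had no root tag. Root regions without a shoot tag were about as many in all, 1087 of 14578 (7.46%), but were weaker. They made up 16.6% of root regions of 2 to 5 TPM and 0 of 1150 of 100 TPM or more (upper Wilson bound 0.333%), and the strongest of them had 51.4 TPM in root.

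By library, where the count table has values, the contrast among strong regions depended on which shoot replicate was read. Among 1419 covered shoot regions of 50 TPM or more, 89 were at 0 in root replicate 1, 83 in root replicate 2 and 53 in both. Among 1509 covered root regions of 50 TPM or more, 0 were at 0 in shoot replicate 1, 45 in shoot replicate 2 and 0 in both. Strong root regions were thus at 0 in the shallower shoot replicate 2 (655935 tags) and not in shoot replicate 1 (901261 tags). Whether depth or another difference between the shoot replicates lay behind this was not tested.

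**Figure D1:**
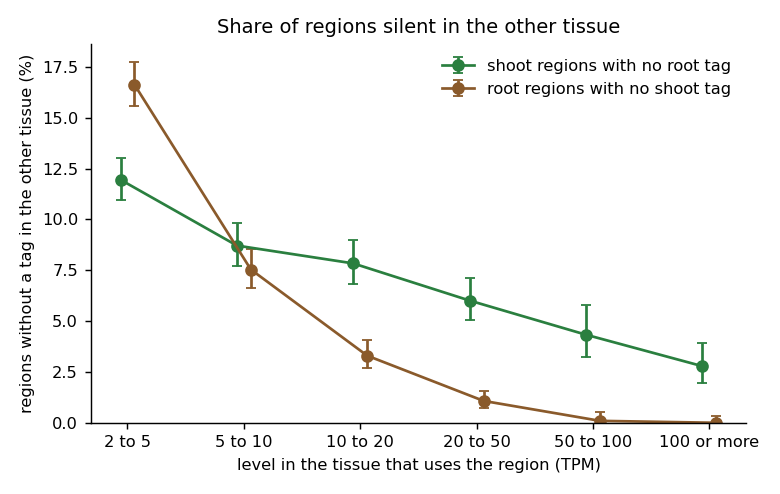
Percentage of regions without a tag in the other tissue (y axis), by level in the tissue that uses the region (TPM bands on the x axis), from pooled replicates. Points are shares and bars are 95% Wilson intervals. Shoot regions without a root tag decline from 12.0% to 2.78%, and root regions without a shoot tag from 16.6% to 0.

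Nearly all root-silent regions were seen in both shoot libraries. Of the 730 covered regions, 727 had tags in both and 628 had 3 or more tags in each. The choice of regions asks for at least 7 pooled tags from these same libraries. Presence in both is therefore partly fixed by it. Shoot replicate 1 had 1 to 980 tags a region with a median of 11, and shoot replicate 2 had 0 to 524 with a median of 9. The log2 ratio of scaled CPM (tags brought to a common library total), replicate 1 over replicate 2, had a median of -0.15, a 10th percentile of -1.19 and a 90th percentile of 0.98. Of 269 regions with 30 or more shoot tags, 20 differed by more than 2-fold between the shoot libraries. The 3 regions seen in 1 shoot library were single bases with 7 or 8 tags in shoot replicate 1 and 0 in shoot replicate 2. They lay on sequence 9 plus strand at 46164624, on sequence 3 plus strand at 31533739 and on sequence 5 plus strand at 40235312. At the same level of 2 to 5 TPM, 311 of 314 root-silent regions and 2174 of 2234 regions with root tags (97.3%) had tags in both shoot libraries.

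**Figure D2:**
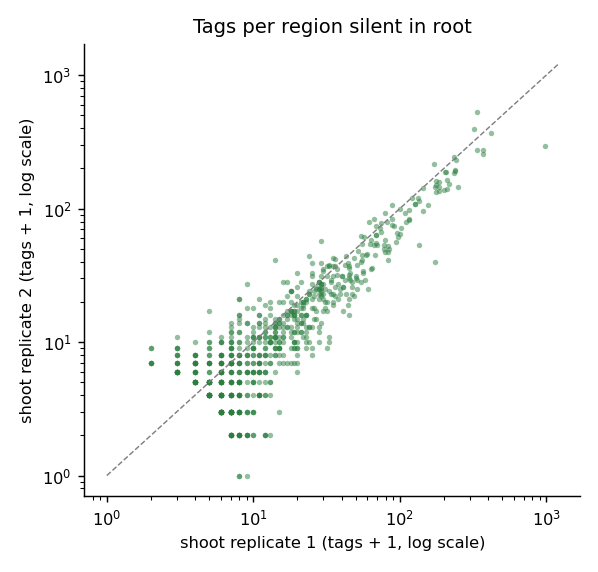
Tags in shoot replicate 1 (x axis) and shoot replicate 2 (y axis) at each of the 730 root-silent regions in the count table, with 1 added to each value and log axes. Each point is a region and the dashed line marks equal tags. The points lie around the line, and the weakest regions scatter to both sides of it. By the choice of regions, no point has fewer than 7 pooled shoot tags. In replicate 2, 3 regions lie at 0.

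The strongest root-silent regions included both sharp and broad ones. Width is given here as the span that holds the shoot tags from the 10th to the 90th percentile. On sequence 8 plus strand at 10709122 to 10709128, the strongest of all, the shoot libraries had 980 and 295 tags (1023 ± 574 CPM, SD, n = 2), and 71.0% of the pooled shoot TPM lay on 1 base. On sequence 1 plus strand at 51794694 to 51794735 they had 320 and 396 tags over a width of 6 bp. On sequence 8 plus strand at 16238821 to 16238828 they had 367 and 276 tags over 3 bp. The scaled CPM of the first were 1428 and 617, those of the second 466 and 828, and those of the third 535 and 577, so the shoot libraries were closest at the third.

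At 14738990 to 14739105 of sequence 6, minus strand, the shoot libraries had 338 and 276 tags, and the width was 4 bp although the region spans 116 bp. On sequence 9 minus strand at 47077579 to 47077622 they had 240 and 230 tags, with 74.8% of the TPM on 1 base. On sequence 10 plus strand at 50860996 to 50861036 they had 235 and 244 tags over 15 bp. In these a single base dominated, with scattered weaker starts around it.

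Other strong regions were broader. On sequence 3 minus strand at 46252225 to 46252319 the shoot libraries had 416 and 366 tags over 42 bp, and 369 and 256 tags over 41 bp were found at 1189114 to 1189243 of sequence 6, plus strand. The widths were 50 bp on sequence 12 minus strand at 4198367 to 4198421, 68 bp on sequence 3 minus strand at 586408 to 586492 and 86 bp on sequence 9 minus strand at 6801505 to 6801619, each with 183 to 239 tags in either shoot library. In 11 of the 12 strongest covered regions the 2 shoot libraries had the same strongest base, and in the remaining one the strongest bases lay 3 bp apart.

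Outside the count table, where only pooled values exist, the strongest root-silent region lay on sequence 19 plus strand at 780041 to 780050 with 327 TPM and a width of 7 bp. Sequence 18 plus strand at 2853110 to 2853143 had 292 TPM over 4 bp, sequence 19 plus strand at 31931378 to 31931486 had 219 TPM over 20 bp, and sequence 17 plus strand at 1703571 to 1703587 had 209 TPM over 6 bp. The next 4 had 74.6 to 95.2 TPM, on sequence 20 minus strand at 48104162, sequence 13 minus strand at 40194623, sequence 18 plus strand at 55831878 and sequence 19 plus strand at 779093. Of these 20 regions, the 12 strongest inside and the 8 strongest outside the count table, 10 had a width of 10 bp or less. In 16 of the 20 there was also no root tag within 500 bp on the same strand.

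The widest root-silent regions had shoot tags spread over more than 300 bp. Whether these tags mark a broad promoter or lie inside a transcription unit was not tested. The widest, on sequence 10 plus strand at 45327523 to 45327951, had 338 and 524 shoot tags on 192 positions over a width of 355 bp, and its strongest base held 4.37% of the TPM. Sequence 6 plus strand at 51851142 to 51851506 had 126 and 107 tags over 338 bp, with 5.11% on the strongest base. Sequence 2 plus strand at 1136526 to 1136878 had 247 and 144 tags over 334 bp, and sequence 6 plus strand at 15001438 to 15001750 had 38 and 24 tags over 301 bp. In the second and the fourth of these the strongest base differed between the shoot libraries, by 28 and 149 bp.

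Over all root-silent regions the median width was 4 bp, against 19 bp in shoot regions with root tags, and 380 of 1079 (35.2%) were a single base against 11.5%. The difference varied with the level and with the positions counted. At 2 to 5 TPM, 69.2% of root-silent regions and 32.0% of regions with root tags were a single base. When positions of 1 TPM or more in shoot alone were counted, the shares were 69.2% and 67.9%, at 5 to 10 TPM they were 21.2% and 29.7%, and over all levels 35.2% and 26.8%. By construction, a region with root tags can include positions of a joined root cluster, and a root-silent region cannot. At 20 TPM or more, 66 of 200 root-silent regions (33.0%) had a width of 10 bp or less and 87 (43.5%) of 50 bp or more, against 30.8% and 34.4% of 3984 regions with root tags. The median widths there were 41 and 31 bp. Among the regions of 100 TPM or more the order was the other way, with medians of 17.5 and 25 bp and with 46.7% and 35.6% at 10 bp or less. In the covered part, the median widths at 20 TPM or more were 38 and 39 bp in the 2 shoot libraries for root-silent regions. They were 31 bp in each for the others of that level. The difference in width was not tested, since regions are not replicates of a tissue.

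**Figure D3:**
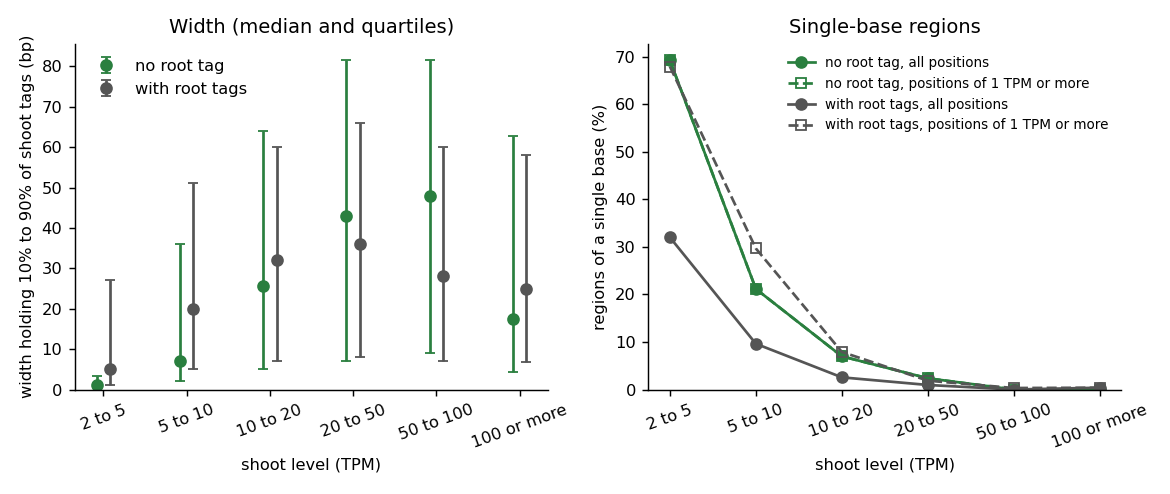
Left, width holding 10% to 90% of the shoot tags (bp) by shoot level (TPM bands), as median and quartiles, for regions with no root tag and with root tags. Right, percentage of regions of a single base, from all positions with a shoot tag and from positions of 1 TPM or more. At 2 to 5 TPM the single-base shares of 69.2% and 32.0% become 69.2% and 67.9% when weak positions are left out.

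The main start was in most cases the same in both shoot libraries. Among 294 covered root-silent regions with several positions and 10 or more tags in each shoot library, the strongest base was the same in 222 (75.5%), and within 10 bp in 85.7%. In 4508 regions with root tags the shares were 75.4% and 86.4%. At 100 TPM or more the strongest base was the same in 23 of 26 root-silent regions (88.5%) and in 91.2% of 701 others. From 50 to 100 TPM the shares were 77.8% of 27 and 85.5% of 660. In the lower bands the order was the other way. From 20 to 50 TPM they were 79.7% and 76.6%, and from 10 to 20 TPM 70.8% and 66.4%. The difference between the 2 kinds of region was not tested.

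The next question was whether the silence in root ended at the border of the region. This was measured outside the regions themselves. Root clusters within 100 bp on the same strand would have been joined to the region, so a root-silent region can have none there. The nearest part of every same-strand window below is thus partly fixed by the choice of regions. In 724 of 1079 root-silent regions (67.1%, Wilson interval 64.2 to 69.8) no root tag lay within 500 bp on the same strand, although 97.1% had a shoot tag there. Of the 12024 shoot regions with root tags, 7.05% had no root tag in that window and 94.0% had a shoot tag. The share with a root tag within 500 bp rose with the root tags in the region itself, from 32.9% at 0 tags and 51.9% at 1 tag to 71.6% at 2 to 3 tags and 95.7% at 4 or more. At 20 TPM or more it was 21.5%, 21.2%, 33.6% and 93.6%, so that among strong regions those with 1 root tag lay close to those with none. On either strand, 610 root-silent regions (56.5%) had no root tag within 1000 bp.

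The tags around the regions were counted by library in the covered part, each position counted a single time and root-silent regions left out. On the same strand within 500 bp, root had 1391 and 1271 CPM and shoot 37725 and 41762 CPM (tags in the window by library total), a ratio of 29.9. Without the 5 strongest neighbouring regions, which held 51.9% of the shoot tags, root had 1308 and 1205 and shoot 18310 and 19888 CPM, a ratio of 15.2. At scattered positions outside all regions root had 338 and 338 and shoot 6090 and 6280 CPM. Around shoot regions with root tags the ratio was 1.03. The tissues did not overlap around root-silent regions, but 2 libraries against 2 cannot give a p below 0.333 in a two-sided exact permutation test, and this p was reached.

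**Figure D4:**
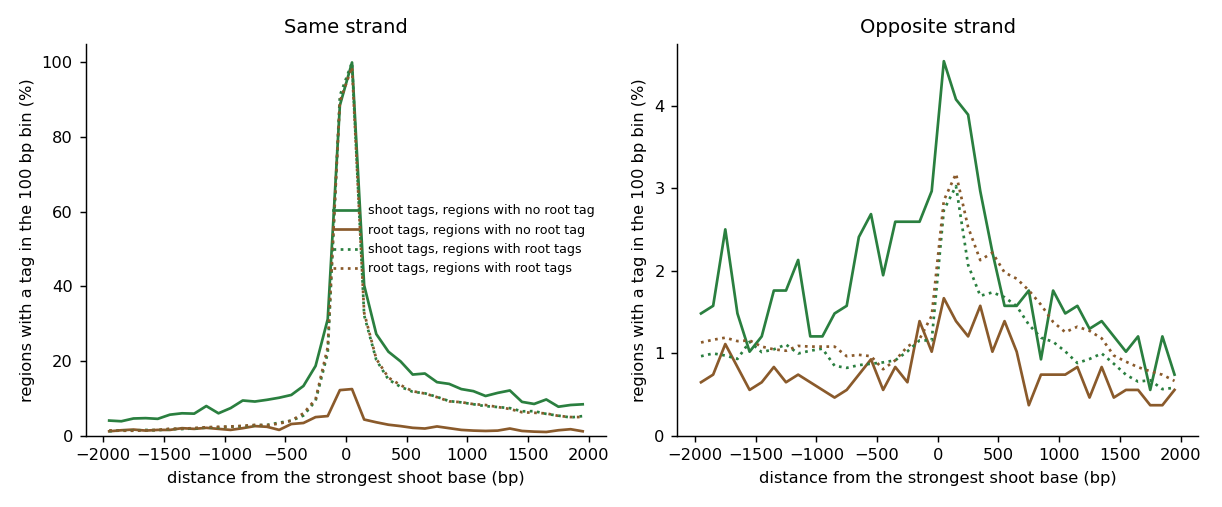
Percentage of regions with a tag in each 100 bp bin (y axis) by distance from the strongest shoot base (x axis, 2000 bp to each side in the direction of transcription), on the same strand (left) and the opposite strand (right), for shoot and root tags from pooled replicates. Around the 1079 regions with no root tag, root tags are found in at most 12.5% of regions per bin on the same strand, and shoot tags in 10.9% of regions in the bin that begins 500 bp upstream, against 4.04% around regions with root tags. By the choice of regions, no root tag lies inside a root-silent region and no root cluster within 100 bp of it on that strand.

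Tags on the opposite strand differed between the tissues as well. A shoot tag lay opposite a root-silent region, within it or within 500 bp, in 168 cases (15.6%, interval 13.5 to 17.9) and a root tag in 73 (6.77%, interval 5.42 to 8.42). For shoot regions with root tags these shares were 12.5% and 13.9%. By library, root had 626 and 751 and shoot 38285 and 38999 CPM opposite the covered root-silent regions. A few very strong starts held most of these, since the 5 strongest regions had 88.7% of the shoot tags. Without them root had 545 and 677 and shoot 4143 and 4639 CPM, a ratio of 7.19. The exact two-sided permutation p was again 0.333, the smallest possible.

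Neighbouring start regions outside the 1079 were tested between the tissues. With all 15741 covered regions offered to the fit, edgeR (quasi-likelihood, Benjamini-Hochberg adjusted p under 0.05) called 29.5% of 7183 tested regions higher in shoot and 23.4% higher in root. All 336 root-silent regions that passed its count filter were called higher in shoot, which their choice fixes, and nothing is read from it. Of 172 neighbours within 1 kb of a root-silent region on either strand, 67 had no root tag either and were under 2 TPM in shoot. None of these 67 passed the filter. The 86 that passed all had root tags, and 77 of them (89.5%) were called higher in shoot. None of the 86 was called higher in root, nor did any pass there at an unadjusted p of 0.05, and DESeq2 also called 0. The median log2 difference of these neighbours was 6.01, against 0.06 over all tested regions, and 68 were called and over 8-fold higher in shoot, as were 15.6% of all tested regions. On the same strand 62 of 68 tested neighbours were higher in shoot, and on the opposite strand 18 of 21.

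Being near any start region, or near one higher in shoot, gave lower shares. Of 1363 tested regions with any region within 1 kb, 36.8% were higher in shoot and 22.3% higher in root. Of 153 tested neighbours of regions that were called higher in shoot but had root tags, 106 (69.3%) were higher in shoot and 9 (5.88%) higher in root. These sets share regions and libraries, and the differences between their shares were not tested.

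The neighbours with the largest fitted fold were strong shoot starts with 1 to 5 root tags. The first lay on sequence 4 plus strand at 5455461 to 5455794, with 3112 and 2605 shoot tags and 0 and 4 root tags, 331 bp upstream of a root-silent region of 22.5 TPM. Sequence 12 minus strand at 36158537 to 36158793 had 803 and 793 shoot tags against 0 and 1 root tags. Sequence 12 minus strand at 8091390 to 8091460 had 693 and 610 against 0 and 1. Sequence 11 plus strand at 7487806 to 7488809 had 2709 and 2006 against 3 and 2, and overlapped a root-silent region on the opposite strand at 7488798 to 7488864 of 17.8 TPM. In edgeR's quasi-likelihood fit their Benjamini-Hochberg adjusted p was 6.82e-07 or lower.

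Some root-silent regions lay downstream of a stronger shoot start. An upstream region on the same strand within 5 kb was found for 318 of them (29.5%, interval 26.8 to 32.3), and for 13.2% of shoot regions with root tags. Upstream regions of 2 root TPM or more were about equally common, at 9.08% and 9.22%. The upstream region was itself root-silent for 140 of the 1079 and for 85 of the 12024 with root tags. Downstream regions within 5 kb were also more common, at 26.9% against 18.2%. In 139 root-silent regions (12.9%) the upstream region was at least 5-fold stronger in shoot, whereas a downstream region of that strength was found for 45 (4.17%). The share with a stronger upstream region fell as root tags in the region rose, from 12.9% at 0 tags to 7.11% at 1 tag, 5.74% at 2 to 3 tags and 2.03% at 4 or more. At 20 TPM or more the shares were 9.5% at 0 tags and 0.771% at 4 or more. At 2 TPM or more, a 5-fold stronger downstream region was found for 4.17% at 0 tags and 1.66% at 1 tag. It was found for 2.53% at 2 to 3 tags and 1.22% at 4 or more. The upstream regions of the 139 had medians of 223 TPM in shoot and 1.14 TPM in root, lay at a median distance of 1179 bp, and the root-silent region had a median of 3.905% of their shoot level.

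In 32 of the 139 the stronger upstream region was itself root-silent, so that its root level of 0 was fixed by the choice of regions. At the upstream region's own ratio of root to shoot tags, 119 of the 139 would have held under 1 root tag. In 127 it would have been under 3 root tags, which a count of 0 cannot be told from. Only in 12 would it have been 3 or more. From these 12, 3 places where roots used the upstream start were picked after their values were seen. The first lay on sequence 5 minus strand at 39692608. This single base had 68 and 62 shoot tags and 0 root tags, 3399 bp downstream of a region at 39696007 to 39696075 with 462 and 349 shoot tags and 333 and 333 root tags. On sequence 8 minus strand at 12584931, also a single base, there were 5 and 5 shoot tags and 0 root tags, 289 bp downstream of a region with 121 and 103 shoot tags and 298 and 189 root tags. On sequence 8 minus strand at 11256858 there were 11 and 10 shoot tags, 3338 bp downstream of a region with 98 and 60 shoot tags and 77 and 58 root tags. At these 3 places the root libraries had tags at the upstream start and none at the one described. The same ratio would have given 106.8, 21.7 and 17.9 root tags there, so they do not stand for the 139.

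Starts silent in root were also found upstream of starts that roots used. On sequence 8 plus strand at 44712633 to 44712722 the shoot libraries had 28 and 26 tags and root none, 3637 bp upstream of a region at 44716359 to 44716589 with 177 and 96 shoot tags and 237 and 160 root tags. On sequence 7 plus strand at 522458 to 522486 there were 5 and 6 shoot tags, 1230 bp upstream of a region with 42 and 18 shoot tags and 259 and 362 root tags. These were picked in the same way. Of the 45 root-silent regions with a 5-fold stronger downstream region, 33 would have held under 3 root tags at its ratio. Both places described are among the 12 that would have held 3 or more.

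Root-silent regions also lay next to each other. Another root-silent region was found within 1 kb of 165 of them (15.3%, interval 13.3 to 17.6), against 139 of the 12024 shoot regions with root tags (1.16%). They formed 76 runs of 2 or more, of which 69 lay on 1 strand, 66 had 2 regions, 8 had 3, 1 had 4 and 1 had 5. Of 101 pairs within 1 kb, 91 were on the same strand. The longest run had 5 regions on sequence 10 plus strand from 45326639 to 45327951, with 31, 12, 66, 10 and 862 pooled shoot tags in the direction of transcription and the widest root-silent region of 5 TPM or more at its end. The plotted window of this run had 1159 shoot tags and 0 root tags. The shoot libraries had 12 and 19 tags at its first region and 23 and 43 at the third.

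The pair with the highest summed level lay on sequence 8 plus strand, where the region at 10709122 to 10709128 is followed after 647 bp by another at 10709775 to 10709845 with 135 and 52 shoot tags. Between them lay a region with 58 shoot tags and 1 root tag. On sequence 19 plus strand the region of 327 TPM at 780041 was preceded by one of 74.6 TPM at 779093 to 779195 and followed by one of 31.5 TPM at 780376 to 780402. A single base of 14.2 TPM lay on the minus strand at 779315, and together they formed the run of 4 regions. The plus strand of its plotted window had 1413 shoot tags and 0 root tags.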

How the data were processed

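The authors deposited raw tag counts for each position and library. Their TPM table has, per the file headers, 1 TPM value for each tissue and position. The aligner, cluster software and handling of reads with several matches were not given in the sources used here. Because many soybean genes are duplicated, a start whose tags also match a copy is uncertain. On positions in both tables, TPM was a power function of the pooled counts (1 tag is worth 0.286 TPM in root and 0.329 TPM in shoot), and 100% of the values came out as whole tags within 0.001, which gave tag numbers outside the count table. The deposited cluster lists, whose score values are TPM of pooled replicates, were joined as described. The count table held 67.3% of the positions of the TPM table, and 1 broken line at its end was left out. The cluster lists have 2 further columns of values that were not used.

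Regions were tested with edgeR 4.0.16 (quasi-likelihood, TMM scaling, filterByExpr, tissue as the only term), checked on simulated data. Scaled CPM use the same factors. DESeq2 1.42.0, other scalings, no filter, a replicate block and leaving out each library were alternatives. Intervals are Wilson intervals at 95%. The regions, neighbour sets and limits were chosen with earlier results of these data known. Regions named are the 12 strongest inside and 8 outside the count table, the 4 widest of 5 TPM or more, those seen in 1 shoot library, up to 4 pairs of highest summed level and the 4 called neighbours with the largest fold in each direction. Others are named as picked after their values were seen. The comparisons by number of root tags, with stronger neighbours, of flanking tags and of positions of 1 TPM or more were chosen after seeing the data.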

Additional observations from a re-analysis of the deposited data

How the results depend on the processing

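The number of root-silent regions was 1080, 1079 and 1031 when clusters were joined over gaps of up to 0, 50 and 200 bp, and 1501 with at most 1 root tag. It was 2166 with a shoot limit of 1 TPM and 627 with a limit of 5 TPM. In the count table, the number of regions of 2 TPM or more without a root tag was 730. It was 1029 without root replicate 1, 994 without root replicate 2, 1099 without shoot replicate 1 and 1295 without shoot replicate 2. With 1 root library there are fewer tags to find. The limit used with 1 shoot library is not in the authors' TPM and is met by fewer tags than the 7 pooled ones needed otherwise. Those 2 counts are therefore not at the same limit as the 730. The share with tags in both shoot libraries was 86.0% with at least 3 tags asked of each. The median width of 4 bp was 5 bp from the 5% to 95% span or the full span, and 20 bp among regions of 5 TPM or more. Chosen after seeing the data, positions of 1 TPM or more gave 4 bp. Without the 5 strongest neighbouring regions, also chosen then, the ratio of shoot to root tags around the regions was 15.2 against 29.9 on the same strand and 7.19 against 56.2 on the opposite strand. The share without a root tag on the same strand was 74.4% within 200 bp and 60.3% within 1000 bp, and 89.0% had less than 1 root TPM within 500 bp. Another region lay within 500 bp of 23.4% and within 2000 bp of 42.6%, against 32.4% within 1000 bp. For shoot regions with root tags the share within 1000 bp was 17.5%.

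Over all alternatives, 70 to 86 neighbours were called higher in shoot. Without a count filter it was 86 of 172, against 18.6% of all 15741 regions. Called higher in root were 2 neighbours when counts were scaled to total tags, and 0 to 1 with 1 library left out (1 without root replicate 1 and 1 without root replicate 2). That scaling also turned the split of all calls, from 2119 higher in shoot and 1684 higher in root to 1782 and 2325. With the replicate block 1991 regions were higher in shoot, 1476 in root, and 75 and 0 neighbours. The replicate numbers share no stated origin, and the differences between replicates 1 and 2 correlated at -0.05 between the tissues. The cause of these shifts was not tested. Silence means no tag at this depth, so weak regions may be used in root below 0.859 TPM.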

Other observations

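Root-silent regions were spread over all 20 sequences, from 6.83% of the shoot regions of 2 TPM or more on sequence 5 to 9.86% on sequence 12, with overlapping Wilson intervals (5.11 to 9.07 and 7.69 to 12.6). The outermost 20% at each end of the sequences, measured to the last tag, held 70.1% of root-silent regions and 71.1% of shoot regions with root tags. The plus strand held 53.6% of root-silent regions (interval 50.6 to 56.5) and 49.8% of the others (48.9 to 50.7).

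A small group of root-silent regions lay opposite a much stronger start. In 18 of them a region on the opposite strand within 1 kb was at least 5-fold stronger in shoot, and 16 of the 18 were single bases. The stronger regions reached 6035 TPM in shoot and had medians of 247 TPM in shoot and 2.72 TPM in root. They lay at a median distance of 42 bp, and the root-silent region had a median of 1.44% of their shoot level. On sequence 3 plus strand a single base at 46273795, picked after its values were seen, had 4 and 9 shoot tags and 0 root tags. It lay opposite a region at 46273623 to 46273865 with 1290 and 1232 shoot tags and 186 and 187 root tags. At that region's ratio of root to shoot tags the single base would have held 1.92 root tags. In 16 of the 18 this number was under 3, which a count of 0 cannot be told from.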
